A study of Mus musculus with 24 samples.

Results

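The genes described here encode receptors through which macrophages sense extracellular adenosine, endothelin, medium-chain fatty acids and platelet-activating factor (PAF), together with the ligand endothelin-1. They are *Adora2a* and *Adora2b* (the adenosine receptors of the A2 class), *Gpr84* (a receptor for medium-chain fatty acids), *Edn1* (the precursor of endothelin-1), *Ednrb* (the endothelin B receptor) and *Ptafr* (the PAF receptor). A gene was included if it was one of these 6 and at least 1 probe of the array carried its symbol, which held for 4 of the 6 and for 7 probes, out of 16594 genes with a named probe. *Adora2a* and *Ptafr* were not analysed here. The members were 1 probe of *Adora2b*, 2 probes of *Gpr84*, 1 probe of *Edn1* and 3 probes of *Ednrb*. No level was used to choose them, although *Adora2b*, *Edn1* and *Gpr84* stand in a gene list that the study chose on these same samples, so their direction here is not independent evidence.

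BMDMs are macrophages grown from mouse bone marrow, and they sense LPS, a lipid of the bacterial outer membrane, through TLR4. The IKKβ experiment compared IKKβ-deficient BMDMs (*Ikkβ* F/F:Mx1-Cre) with wt BMDMs (*Ikkβ* F/F, with no Cre), after 4 h of 100 ng/ml LPS and at 0 h. The p38 experiment compared BMDMs given 10 µM SB202190, a p38 kinase inhibitor, for 2 h before LPS with DMSO control BMDMs at the same 2 times. The sample titles call these controls WT, and the study calls them both untreated and DMSO-treated. Each experiment had 12 arrays, 3 in each of its 4 groups. The marrow donors were C57BL/6 mice of 8 to 10 weeks. Mx1-Cre is driven by an interferon-inducible promoter and is not restricted to macrophages, so deletion in other marrow cells cannot be told apart from deletion in macrophages. The labels name the macrophage line RAW264.7 as the cell, while the protocols describe BMDMs. All 8 measured macrophage markers were detected on each of the 12 arrays of the IKKβ experiment, and stood at or above the detection level on each of the 12 of the p38 experiment. Both are macrophages, so these markers cannot tell RAW264.7 cells from BMDMs. Neither source says that replicates were separate cultures or mice, so p-values reflect only how far these arrays varied, and that variation may be technical.

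All values are normalized intensities on a linear scale, as the authors deposited them, and differences were fitted on their log2 (SE, standard error). Groups were compared with limma over all probes detected on at least 3 arrays of an experiment (12376 probes in the IKKβ experiment and 13523 in the p38 experiment). A call is a Benjamini-Hochberg adjusted p under 0.05 over all of these. The spread was pooled over the 4 groups of an experiment, so the SE given for an arm also reflects the arrays of the other arm. In the IKKβ experiment 10050 to 11511 probes were detected per array, and arrays of 1 replicate number shared a BeadChip by the labels. In the p38 experiment the 2 deposited tables conflicted. Only 8 of the 12 normalized columns had the rank order of any intensity column, 6 of those stood in the same group and 1 under the same label. The other 4 were SB202190 columns, replicates 1 and 3 of each time, with a rank correlation of at most 0.9375. The median SD between replicates on the log2 scale was 0.084 and 0.109 in the SB202190 groups at 4 h and 0 h, against 0.277 and 0.301 in the DMSO groups. Each p38 result below rests on the labels of the normalized columns.

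Adenosine is formed outside cells from released ATP, and in macrophages the Gs-coupled A2 receptors raise cAMP and restrain inflammatory cytokine output. Endothelin-1 is made from a precursor by endothelin-converting enzymes and acts on receptors A and B. It is best known as a vasoconstrictor of endothelial origin. *Gpr84* is a Gi-coupled receptor of myeloid cells whose transcript rises on LPS in macrophages. These are background facts, not results of the arrays.

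Of the 4 measured genes, *Adora2b*, *Gpr84* and *Edn1* stood higher after LPS and *Ednrb* did not, so their RefSeq promoter windows (250 bases before to 50 bases after the start used by the RefSeq table, GRCm38.p6) are shown to compare sequence beside expression. Capitals mark matches, on either strand, to GGG and CC with any 5 bases between them (an NF-κB-type motif), TTNNGNAA (a C/EBP-type motif) or TGANTCA (AP-1), and overlapping matches run together. The letters TGACGTCA (CRE), TGACG (a shorter form of the CRE) and GAGGAA (an ETS/PU.1-type motif) were searched as well and are not capitalised.
Adora2b, chr11:62248734-62249033, plus strand: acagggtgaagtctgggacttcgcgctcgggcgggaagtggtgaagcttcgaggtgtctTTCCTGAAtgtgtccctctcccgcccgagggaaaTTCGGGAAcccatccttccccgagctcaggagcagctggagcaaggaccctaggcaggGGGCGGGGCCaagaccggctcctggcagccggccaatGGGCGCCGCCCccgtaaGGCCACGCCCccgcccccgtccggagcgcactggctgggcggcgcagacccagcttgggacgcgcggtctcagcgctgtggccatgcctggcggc
Gpr84, chr15:103310389-103310688, minus strand: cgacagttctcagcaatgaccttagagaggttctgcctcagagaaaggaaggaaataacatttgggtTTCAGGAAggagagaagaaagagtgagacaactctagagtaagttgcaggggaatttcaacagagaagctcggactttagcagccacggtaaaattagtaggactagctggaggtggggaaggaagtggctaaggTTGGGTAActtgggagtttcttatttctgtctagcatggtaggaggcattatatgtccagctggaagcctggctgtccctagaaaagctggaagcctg
Edn1, chr13:42301226-42301525, plus strand: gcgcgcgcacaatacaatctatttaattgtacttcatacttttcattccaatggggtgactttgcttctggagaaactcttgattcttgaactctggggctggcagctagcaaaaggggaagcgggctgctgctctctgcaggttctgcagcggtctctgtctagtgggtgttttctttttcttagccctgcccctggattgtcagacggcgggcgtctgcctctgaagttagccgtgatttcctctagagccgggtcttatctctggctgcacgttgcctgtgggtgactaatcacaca
Ednrb, chr14:103843652-103843951, minus strand: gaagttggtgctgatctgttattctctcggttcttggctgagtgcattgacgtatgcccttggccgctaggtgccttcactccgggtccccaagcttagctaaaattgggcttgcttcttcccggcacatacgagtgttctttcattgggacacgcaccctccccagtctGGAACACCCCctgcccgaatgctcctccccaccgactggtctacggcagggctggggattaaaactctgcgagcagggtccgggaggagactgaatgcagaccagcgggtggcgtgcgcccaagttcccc

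The *Adora2b* window held 4 matches to the NF-κB-type letters, of which 2 overlap, and 2 to the C/EBP-type letters. The *Gpr84* window held 2 C/EBP-type matches and no NF-κB-type match. The *Edn1* window held no match to these 3 motifs and 1 to the ETS/PU.1-type letters, and the *Ednrb* window held 1 NF-κB-type match and 1 match to the shorter CRE letters. No window held the full CRE. These letters are common: 50.8% of 32851 RefSeq windows of this length held the NF-κB-type motif, 40.7% the C/EBP-type motif, 7.81% the AP-1 motif, 1.79% the CRE, 20.8% its shorter form and 28.3% the ETS/PU.1-type motif. The windows of the genes that stood higher after LPS thus differed among themselves in the motifs they held, and a match is a description of letters only. *Adora2b* lies on chromosome 11 at 62248984-62266452, *Gpr84* on chromosome 15 at 103308233-103310670, *Edn1* on chromosome 13 at 42301476-42307990 and *Ednrb* on chromosome 14 at 103814615-103844508. The start used for the window lay 232 bases inside the outer end of the *Gpr84* gene and 807 bases inside that of *Ednrb*, so that most of the first window and all of the second lay within the gene as annotated.

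*Ikbkb*, which encodes IKKβ, was read first as a check of the genotype labels. Its value at 4 h was 193, 225 and 232 in IKKβ-deficient BMDMs, against 791, 601 and 665 in wt BMDMs, so the genotypes did not overlap, as was so in this direction for 2.05% of all probes. The log2 difference was -1.66, with an adjusted p = 0.0142 from limma. It was the 1 probe that passed of all probes (0.00808%) in this comparison.

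In the IKKβ experiment *Adora2b*, *Gpr84* and *Edn1* were higher at 4 h than at 0 h on every BeadChip in both genotypes. The share of all probes that did so was not counted. Without the BeadChip as a replicate block, none of the 7 member probes passed in any comparison of this experiment. In that fit 0.0162% of all probes passed for LPS in wt BMDMs and 0.0% in IKKβ-deficient BMDMs. With the block *Adora2b* passed for LPS in both genotypes, as given below, where 5.73% of all probes passed in wt BMDMs and 3.2% in IKKβ-deficient BMDMs. The 0 h levels were uneven, and replicate 1 was low at 0 h for every one of the 4 genes in both genotypes, so each array is given. On bulk arrays fewer expressing cells and less RNA per cell cannot be told apart.

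*Adora2b*, whose receptor couples to Gs at high adenosine concentrations, was detected on all 12 arrays. In IKKβ-deficient BMDMs its value was 3469.6, 6775 and 7390.2 at 4 h (replicates 1, 2 and 3) and 368, 1852 and 3799 at 0 h. In wt BMDMs it was 4137, 6775 and 8967 at 4 h and 398, 1658 and 3871 at 0 h. The 4 h arrays lay above the 0 h arrays in wt BMDMs, as they did for 5.87% of all probes, whereas in IKKβ-deficient BMDMs replicate 3 at 0 h lay above replicate 1 at 4 h. The value of 6775 recurred in both genotypes because quantile normalization gives probes of equal rank one value.

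Within a BeadChip the LPS fold of *Adora2b* was 9.43, 3.66 and 1.95 in IKKβ-deficient BMDMs and 10.4, 4.09 and 2.32 in wt BMDMs, so each genotype had its highest fold in replicate 1. The log2 change with LPS was 2.02 (SE 0.93, adjusted p = 0.806) in IKKβ-deficient BMDMs and 2.21 (SE 0.93, adjusted p = 0.691) in wt BMDMs. With the BeadChip as a replicate block *Adora2b* passed in both, with an adjusted p = 0.0447 in IKKβ-deficient BMDMs and 0.0279 in wt BMDMs. Under that block 3.2% of all probes passed for LPS in IKKβ-deficient BMDMs (1.76% higher, 1.44% lower) and 5.73% in wt BMDMs (2.66% higher, 3.07% lower). Between the genotypes it passed 0.0242% of all probes at 4 h and 0.00808% at 0 h, with no member among them. At 4 h the genotype difference was -0.18 on the log2 scale (SE 0.93, adjusted p = 1.0), and its sign turned without IKKβ-deficient replicate 1 (0.17) or wt replicate 3 (0.08).

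*Gpr84* was detected on all 12 arrays by both probes, called here probe 1 (ILMN_1212695) and probe 2 (ILMN_2991255). Probe 1 read 15560.2, 13615 and 7309.6 at 4 h and 304, 5705 and 4361 at 0 h in IKKβ-deficient BMDMs. In wt BMDMs it read 15560.2, 13670.5 and 7620.2 at 4 h and 396, 7048 and 5406 at 0 h. Probe 2 lay between 6043 and 9724 at 4 h over both genotypes and between 194 and 6326 at 0 h. By probe 1 all 3 arrays at 4 h lay above all 3 at 0 h in both genotypes, as 5.56% of all probes did in IKKβ-deficient BMDMs and 5.87% in wt BMDMs.

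The *Gpr84* fold depended on the BeadChip. It was 51.2 on replicate 1 and 2.39 and 1.68 on the others in IKKβ-deficient BMDMs, against 39.3, 1.94 and 1.41 in wt BMDMs. Probe 2 gave the same order, with folds of 31.2, 2.07 and 1.37 in IKKβ-deficient BMDMs and 26.9, 1.54 and 1.37 in wt BMDMs. The log2 change of probe 1 was 2.56 (SE 1.23, adjusted p = 0.841) in IKKβ-deficient BMDMs and 2.25 (SE 1.23, adjusted p = 0.795) in wt BMDMs. Its genotype difference at 4 h was -0.02 (SE 1.23) and ran from -0.33 to 0.31 when single arrays or replicates were left out, and neither probe passed with the replicate block, at adjusted p-values of 0.186 to 0.250.

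*Edn1*, the ligand gene, varied widely between arrays of 1 group. At 4 h it stood at 2812, 8415 and 3743 in IKKβ-deficient BMDMs, against 5028, 9069 and 5094 in wt BMDMs. At 0 h replicate 1 was not detected in either genotype, at 97.9 in IKKβ-deficient BMDMs and 91.6 in wt BMDMs. Replicates 2 and 3 at 0 h read 1051 and 1434 in IKKβ-deficient BMDMs and 2081 and 2223 in wt BMDMs.

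Every 4 h array of *Edn1* lay above every 0 h array of the same genotype, as was so for 5.56% of all probes in IKKβ-deficient BMDMs and 5.87% in wt BMDMs. On the BeadChips where it was detected at 0 h, LPS raised the value 8.01 and 2.61 times in IKKβ-deficient BMDMs and 4.36 and 2.29 times in wt BMDMs. The fitted log2 changes, with undetected arrays at their measured value, were 3.08 (SE 1.28, adjusted p = 0.749) in IKKβ-deficient BMDMs and 3.03 (SE 1.28, adjusted p = 0.694) in wt BMDMs. With the replicate block the adjusted p-values were 0.0729 and 0.0629, which also missed the threshold. At 4 h the IKKβ-deficient value was 0.559, 0.928 and 0.735 of the wt value on the 3 BeadChips. The fitted difference of -0.46 on the log2 scale (SE 1.28, adjusted p = 1.0) was smaller than its error.

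*Ednrb* did not follow the other members. Its brightest probe, probe 1 (ILMN_2589640), read 671, 905 and 1559 at 4 h and 172, 1196 and 1388 at 0 h in IKKβ-deficient BMDMs. In wt BMDMs it read 466, 365 and 1371 at 4 h and 168, 805 and 1381 at 0 h. The times overlapped in both genotypes, and replicate 3 was the highest in all 4 groups. At 4 h the IKKβ-deficient arrays stood at 1.44, 2.48 and 1.14 times their wt arrays, or 0.67 on the log2 scale (SE 0.95, adjusted p = 1.0). With the replicate block the SE of that difference was 0.52 and its adjusted p from limma was 0.853.

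The log2 change of *Ednrb* probe 1 with LPS was 0.57 (SE 0.95) in IKKβ-deficient BMDMs and 0.11 (SE 0.95) in wt BMDMs, and both signs turned when 0 h replicate 1 was left out (-0.39 and -0.78). With the replicate block the SE of both changes was 0.52, and neither passed. Probe 3 (ILMN_2917471) was dimmer, between 93.8 and 540.3, and it ranked the replicates as probe 1 did in 3 of the 4 groups. Probe 2 (ILMN_2717765) was detected on 4 of the 12 arrays and lay between 67.4 and 117, close to the detection level of 99.2.

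**Figure D1:**
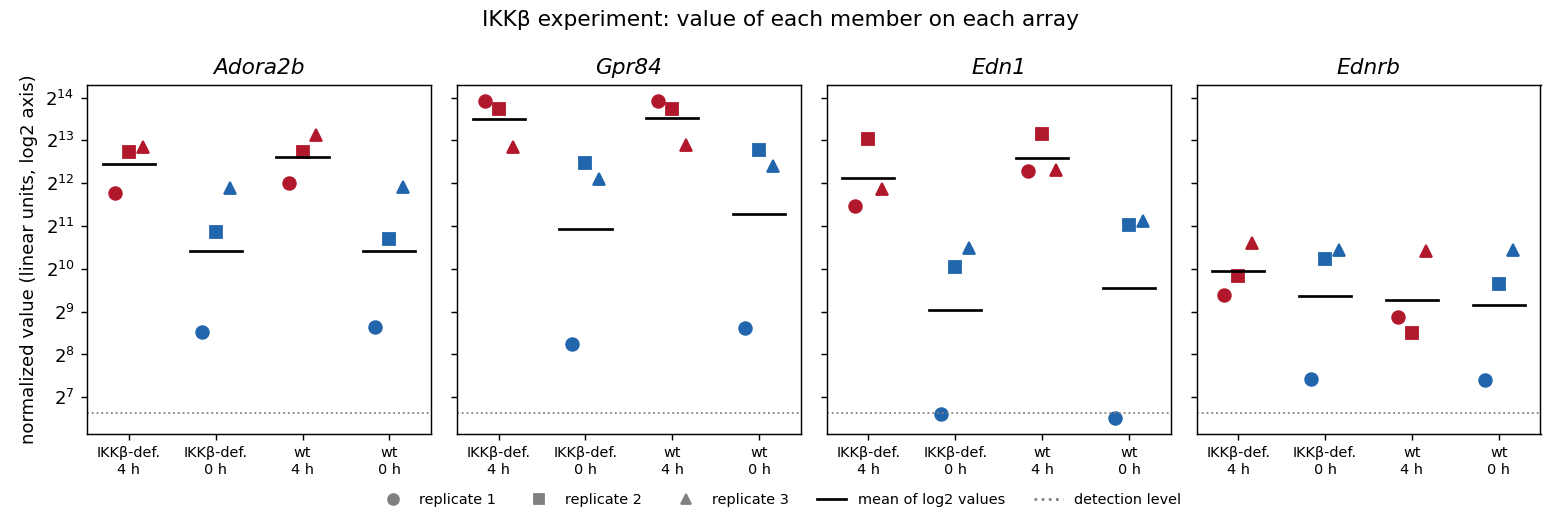
Normalized value of *Adora2b*, *Gpr84* probe 1, *Edn1* and *Ednrb* probe 1 on each array of the IKKβ experiment (y axis, linear units on a log2 axis; x axis, the 4 groups of genotype and time, 3 arrays each). Bars are means of log2 values and the dotted line is the detection level of 99.2; for every gene the lowest points are replicate 1 at 0 h in the 2 genotypes, at 97.9 and 91.6 for *Edn1*.

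The unevenness at 0 h was shared with genes that LPS induces early in macrophages. Over the 11 measured genes of a list with *Tnf*, *Il1b*, *Il6* and other cytokine and feedback genes, the mean log2 value at 4 h was 12.48, 12.96 and 12.17 in IKKβ-deficient BMDMs and 13.31, 12.78 and 12.45 in wt BMDMs. At 0 h it was 8.39, 10.80 and 10.97 in IKKβ-deficient BMDMs and 8.29, 11.48 and 11.41 in wt BMDMs. Replicates 2 and 3 at 0 h therefore stood closer to the 4 h arrays than replicate 1 did, for this list as for *Adora2b*, *Gpr84* and *Edn1*, and its part in the member values was not tested. No gene of the list passed in either genotype without the replicate block, at a median log2 change of 2.25 in IKKβ-deficient BMDMs and 2.12 in wt BMDMs, against -0.02 over all probes in each. With the block 2 of the 11 rose in IKKβ-deficient BMDMs, *Il1a* and *Ptgs2*, and 3 in wt BMDMs, the same 2 and *Nfkbia*, where 3.2% and 5.73% of all probes passed.

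In the p38 experiment, read by the labels of the normalized columns, *Adora2b*, *Gpr84* and *Edn1* were again higher at 4 h than at 0 h in all 3 replicates of both arms. Here too the share of all probes that did so was not counted. *Edn1* in SB202190-treated BMDMs was the only one of 6 member probes tested that passed, for LPS in that arm, where 8.91% of all probes passed (4.85% higher, 4.06% lower). For LPS in the DMSO control no member probe passed, with 5.72% of all probes passing (2.77% higher, 2.95% lower). At 4 h all 3 genes had lower mean levels in SB202190-treated than in DMSO BMDMs, and none passed, against 2.63% of all probes (1.75% higher, 0.887% lower).

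*Edn1* read 6385, 5838 and 5465 at 4 h and 135, 150.0 and 136 at 0 h in SB202190-treated BMDMs. In the DMSO control it read 18067, 12160.0 and 8729 at 4 h, and at 0 h it was not detected in replicate 1 (100.2), low in replicate 3 (129) and high in replicate 2 (9188). The SB202190 arrays at 0 h and 2 of the DMSO arrays at 0 h were thus near the detection level of 121.1, and DMSO replicate 2 at 0 h lay within the range of the DMSO arrays at 4 h. The LPS fold was 47.2, 38.9 and 40.2 in SB202190-treated BMDMs, and in the DMSO control 1.32 in replicate 2 and 67.5 in replicate 3.

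The log2 change of *Edn1* with LPS was 5.39 (SE 1.30, adjusted p = 0.0286, 0.0294 with the replicate block) in SB202190-treated BMDMs. Replicate number hardly paired the SB202190 arrays of 4 h and 0 h, whose deviations from group means correlated at 0.056 to 0.095. The DMSO control gave 4.66 (SE 1.30, adjusted p = 0.0612), which lay below the SB202190 change but was 6.77 without DMSO replicate 2 at 0 h, above it. With single arrays or replicates left out it ran from 3.24 to 6.79. The call in SB202190-treated BMDMs was lost without the 4 columns that match no intensity column (log2 change 5.28, adjusted p = 1.0), without any single SB202190 array (adjusted p = 0.0864 to 0.0989), and without all arrays of replicate 1 (0.279) or 3 (0.257). Under the labels of the intensity columns the log2 change was 0.62 (adjusted p = 1.0) after quantile normalization. The intensities themselves were 4937, 2934 and 6985 in the columns labelled SB202190 at 4 h and 2458, 984 and 10859 in those labelled SB202190 at 0 h. The column with 10859 has the rank order of the normalized DMSO array of replicate 3 at 4 h.

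At 4 h *Edn1* was lower on every SB202190 array than on every DMSO array, at 0.353, 0.480 and 0.626 of the DMSO array of the same number. The groups of 14.8% of all probes did not overlap in that direction. Deviations from group means of same-numbered SB202190 and DMSO arrays correlated at only -0.068 to 0.058. Replicate number thus did not pair these arrays, and the 3 ratios are by label only. The log2 difference was -1.08 (SE 1.30, adjusted p = 0.668), and under the intensity labels it was 1.20 in the other direction (quantile-normalized).

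*Adora2b* read 4953, 5319 and 5710.3 at 4 h and 2043, 1657 and 1569 at 0 h in SB202190-treated BMDMs. The DMSO arrays read 4802, 15325 and 13995 at 4 h and 387, 5179.9 and 3423 at 0 h. The SB202190 arrays lay close together at each time, whereas DMSO replicate 1 was the lowest of its group at both times. At 4 h that array lay below all 3 SB202190 arrays, and the other DMSO arrays lay above them.

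The log2 change of *Adora2b* with LPS was 1.61 (SE 0.78, adjusted p = 0.236) in SB202190-treated BMDMs and 2.41 (SE 0.78, adjusted p = 0.0955) in the DMSO control. Both SEs rest on the pooled spread. The log2 SD was 0.10 at 4 h and 0.20 at 0 h in SB202190-treated BMDMs, against 0.93 and 2.01 in the DMSO control. The difference between the arms at 4 h was -0.93 (SE 0.78, adjusted p = 0.530). It was 0.36 under the intensity labels.

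*Gpr84* probe 1 read 7402, 6527 and 7119.5 at 4 h and 3176, 2742 and 2734 at 0 h in SB202190-treated BMDMs. The DMSO arrays read 20058, 10852 and 13234 at 4 h and 867, 8399.6 and 3872 at 0 h. All arrays at 4 h lay above all at 0 h in both arms, as was so for 24.9% of all probes in SB202190-treated BMDMs and 6.43% in the DMSO control. Every SB202190 array at 4 h lay below every DMSO array at 4 h, as was so for 14.8% of all probes. At 0 h the SB202190 arrays fell inside the DMSO range.

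The log2 change of *Gpr84* with LPS was 1.28 for probe 1 (SE 0.61, adjusted p = 0.226) and 1.24 for probe 2 (SE 0.62, adjusted p = 0.252) in SB202190-treated BMDMs. In the DMSO control it was 2.23 for probe 1 (SE 0.61, adjusted p = 0.0592) and 2.22 for probe 2 (SE 0.62, adjusted p = 0.0621). The DMSO fold was 23.1 in replicate 1, 1.29 in replicate 2 and 3.42 in replicate 3 by probe 1. Leaving out DMSO replicate 2 at 0 h brought *Edn1*, *Adora2b* and both *Gpr84* probes past the threshold in the DMSO control. That fit called 3457 of all 13523 probes for LPS in the DMSO control, against 774 with the array kept. At 4 h the arms differed by -1.02 for probe 1 (SE 0.61, adjusted p = 0.370) and -1.32 for probe 2 (SE 0.62, adjusted p = 0.267). Without DMSO replicate 2 at 0 h, *Gpr84* probe 2 (adjusted p = 0.0282) and *Edn1* (0.0135) passed in this comparison, although that array is in neither group compared and changes only the pooled spread. Of all 13523 probes 1624 passed there, against 356 with the array kept. Under the intensity labels the *Gpr84* differences were 0.83 and 0.85.

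*Ednrb* probe 1 read 304, 345 and 353 at 4 h and 319, 349 and 361 at 0 h in SB202190-treated BMDMs. The DMSO arrays read 776, 1872 and 376 at 4 h and 576, 2677 and 302 at 0 h. The times overlapped in both arms, and the spread in the DMSO control was that between replicates, with replicate 2 the highest at both times. The log2 change with LPS was -0.04 (SE 0.70) in SB202190-treated BMDMs and 0.08 (SE 0.70) in the DMSO control. At 4 h the arms differed by -1.30 (SE 0.70, adjusted p = 0.325), with all SB202190 arrays below all DMSO arrays (14.8% of all probes). Probe 3 differed by -1.22 (SE 0.73, adjusted p = 0.366), but its SB202190 and DMSO arrays overlapped, and probe 2 was too dim to be tested.

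**Figure D2:**
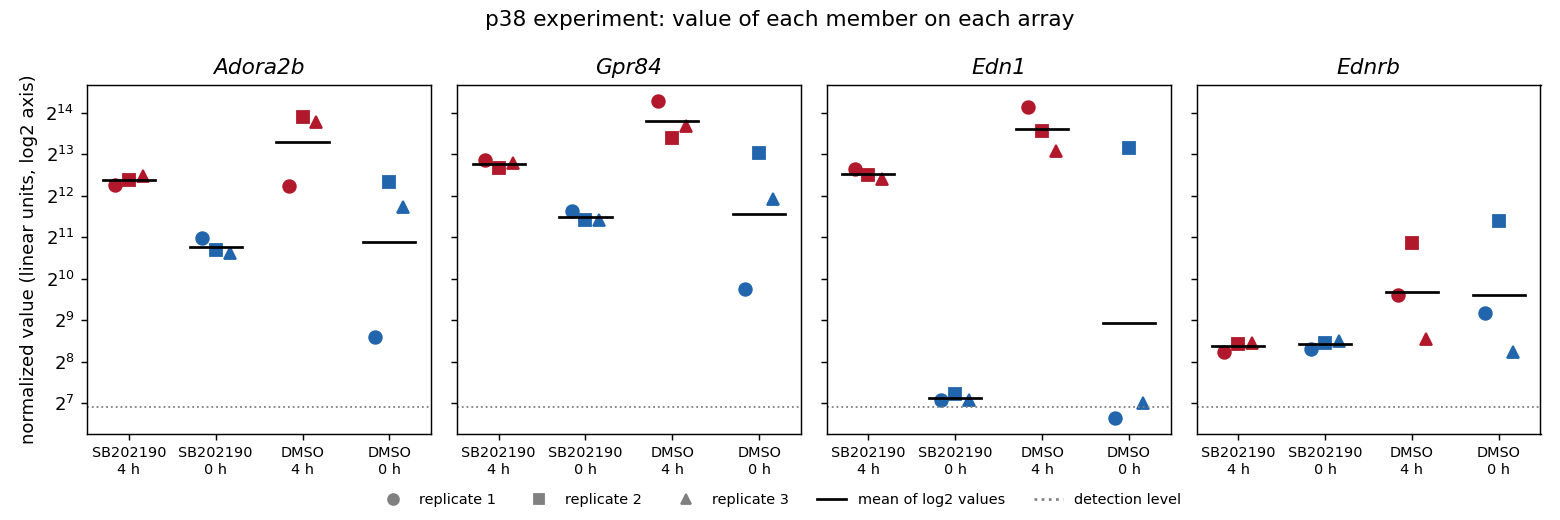
Normalized value of the same 4 probes on each array of the p38 experiment (y axis, linear units on a log2 axis; x axis, the 4 groups of treatment and time, 3 arrays each, by the labels of the normalized columns). Bars are means of log2 values and the dotted line is the detection level of 121.1; *Edn1* at 0 h lay near that level except in DMSO replicate 2, at 9188.

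Differences at 0 h and differences between LPS changes were tested as well. At 0 h no member probe passed between IKKβ-deficient and wt BMDMs or between SB202190-treated and DMSO BMDMs, where 0.0% of all probes passed in each. For the difference of the LPS changes the smallest adjusted p of a member was 1.0 in the IKKβ experiment and 0.9998 in the p38 experiment, against 0.0% and 0.0148% of all probes passing. The study's methods name t-tests without giving the side. Run 1-sided on linear values without adjustment, the methods' t-test passed *Adora2b*, *Edn1* and both *Gpr84* probes for LPS in all 4 arms. Its background was 5.25% of all probes in IKKβ-deficient, 5.51% in wt, 24.9% in SB202190-treated and 6.56% in DMSO BMDMs. For lower values at 4 h it passed no member between the genotypes (1.85% of all probes) and *Gpr84* by both probes and *Edn1* between SB202190-treated and DMSO BMDMs (11.3%). After Benjamini-Hochberg adjustment the LPS test of 4 probes passed in SB202190-treated BMDMs and in no other arm. Run 2-sided without adjustment, it passed *Gpr84* probe 1 in IKKβ-deficient BMDMs (4.78% of all probes), *Edn1* in wt BMDMs (5.28%), both *Gpr84* probes in the DMSO control (7.7%) and the same 4 probes in SB202190-treated BMDMs (47.1%). The 2-sided test at 4 h passed no member between the genotypes (1.88%) and both *Gpr84* probes between SB202190-treated and DMSO BMDMs (20.3%).

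**Figure D3:**
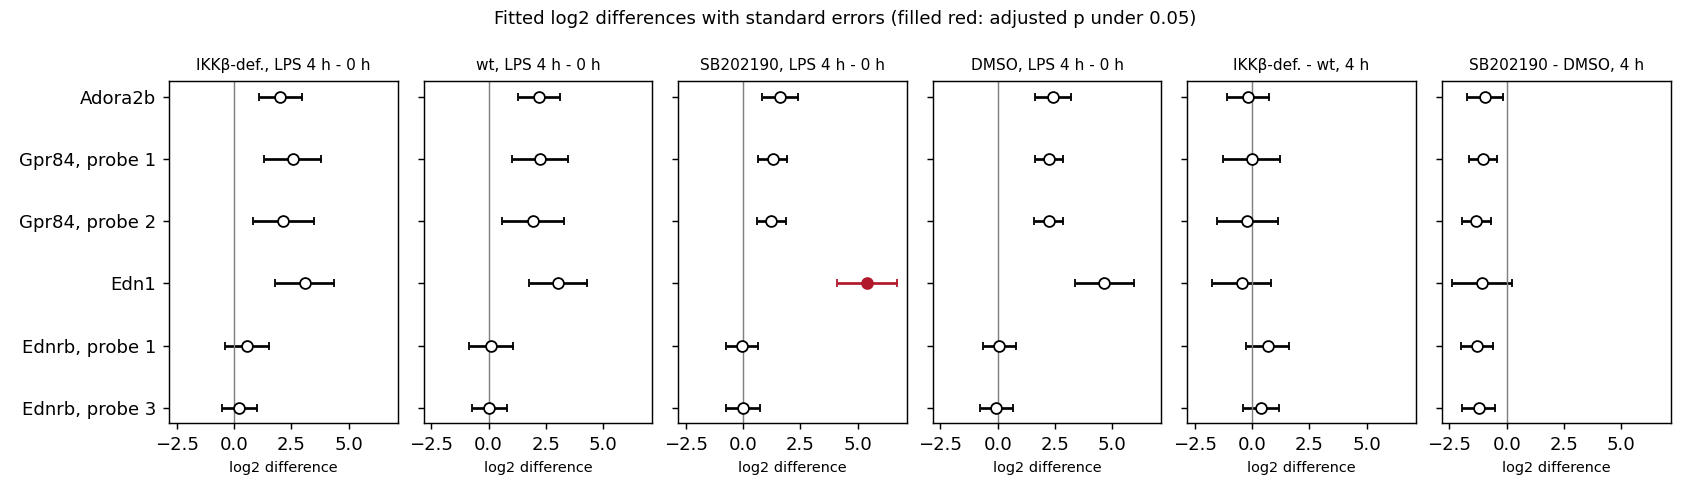
Fitted log2 differences of 6 member probes (rows) in 6 comparisons (panels; x axis, log2 difference), with SEs from limma as bars. *Edn1* in SB202190-treated BMDMs, at 5.39, is the only filled red point, the only one with an adjusted p under 0.05. The *Ednrb* probes lie within 1 SE of 0 for LPS in all 4 arms in this fit, which has no replicate block. Probe 1 was farthest from 0 in IKKβ-deficient BMDMs, at 0.575, where the SE with the block was 0.52.

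The members were then set beside the early LPS list array by array. In the p38 experiment the mean log2 value of the list at 4 h was 14.18, 14.17 and 14.20 in SB202190-treated BMDMs and 14.28, 13.39 and 15.02 in the DMSO control. At 0 h it was 10.10, 10.05 and 10.02 in SB202190-treated BMDMs and 8.90, 12.89 and 10.65 in the DMSO control. DMSO replicate 2 at 0 h was thus the array nearest to the 4 h arrays for this list as for *Edn1* and *Gpr84*. Of its 11 genes, 10 rose with LPS in SB202190-treated BMDMs and 7 in the DMSO control, among them *Cxcl1* and *Ptgs2* in both, with a median log2 change of 4.48 in SB202190-treated BMDMs and 3.53 in the DMSO control, against -0.03 over all probes in each. Its part in the uneven member values was not tested.

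**Figure D4:**
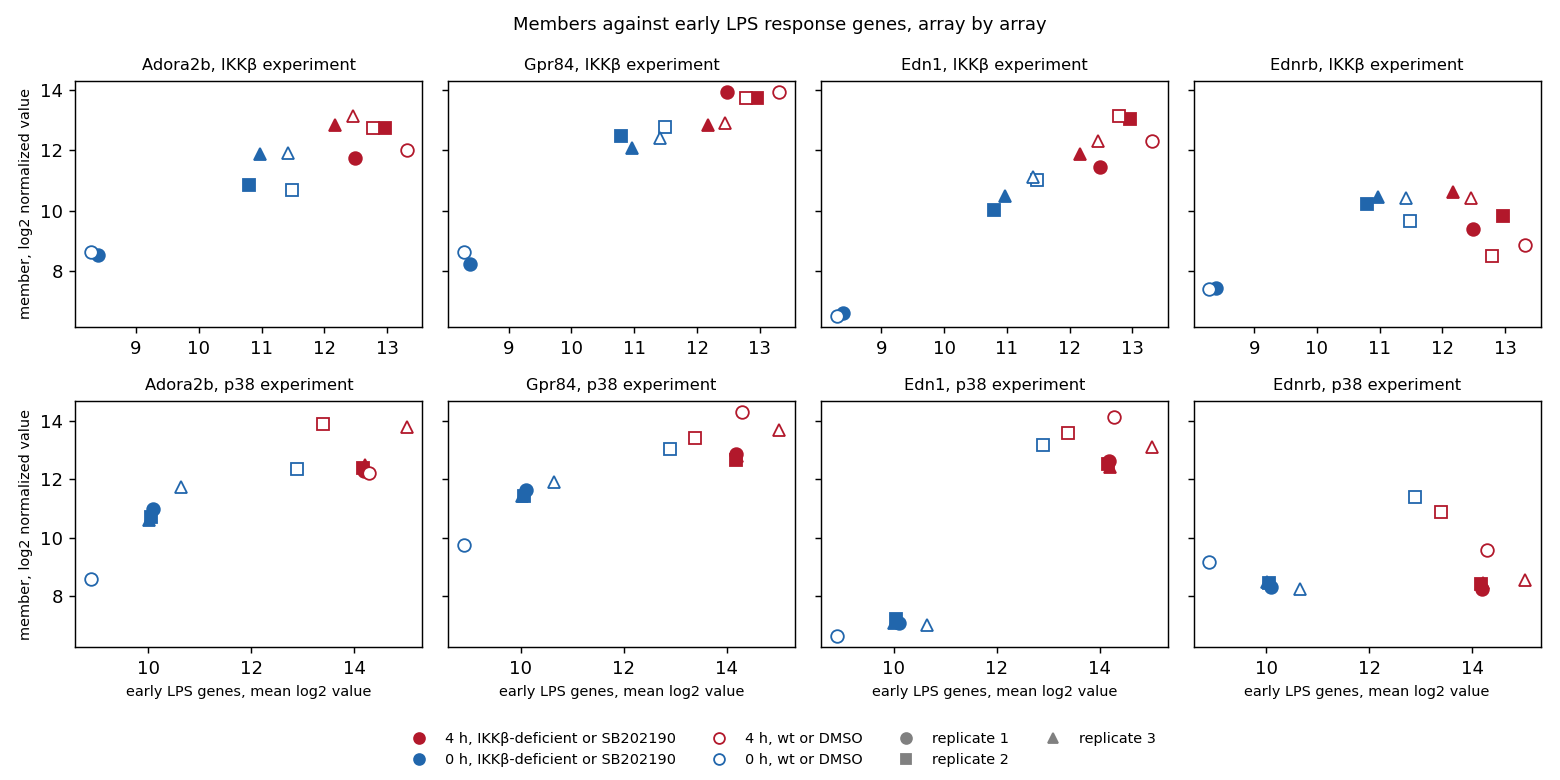
Log2 value of each member (y axis) against the mean log2 value of 11 early LPS response genes (x axis) on each array, IKKβ experiment above and p38 experiment below. *Adora2b*, *Gpr84* and *Edn1* are low where the list is low, down to a list mean of 8.29 on wt replicate 1 at 0 h, while *Ednrb* shows no such order in the p38 experiment.

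Likeness of pattern was measured as the Pearson r of log2 values over the 12 arrays of each experiment, given as a description because the arrays share groups and BeadChips. The genes most like *Adora2b* were *Upp1* (r = 0.984 in the IKKβ and 0.971 in the p38 experiment), *Trex1* (0.979 and 0.953) and *Car13* (0.980 and 0.950). *Gpr84* probe 1 was most like *Socs3* (0.951 and 0.961), *Arhgef3* and *Il1b*, and probe 2 most like *Cd69*, *Mtmr14* and *Tlr6*. *Edn1* was most like *Mtmr14* (0.970 and 0.970), *Tnfaip3* (0.970 and 0.996) and *Il6* (0.983 and 0.968).

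The 2 *Gpr84* probes correlated at 0.969 and 0.980, and *Ednrb* probes 1 and 3 at 0.942 and 0.993. *Adora2b*, *Gpr84* and *Edn1* correlated with each other at 0.876 to 0.959 in the IKKβ experiment and 0.810 to 0.916 in the p38 experiment. *Ednrb* probe 1 correlated with them at 0.616 to 0.756 and 0.280 to 0.473. Its most similar genes were *H3c13*, *H3c14* and *Minpp1*, and those of probe 3 were *F2r*, *Tmed2* and *Ist1*.

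The pathways around the members were read from gene lists. In the IKKβ experiment no gene of these lists passed in any LPS or genotype comparison without the replicate block. With it, none passed between the genotypes, and few passed for LPS. *Adk*, which phosphorylates adenosine, fell in both genotypes, as did *Plcb2*, a phospholipase C, and *Pde4b*, a phosphodiesterase for cAMP, rose in both. The log2 change of *Adk* was -0.57 in IKKβ-deficient BMDMs and -0.56 in wt BMDMs, at adjusted p-values of 0.0385 and 0.0310 from limma. Beside *Adora2b*, the others that passed were *Pafah1b1* and *Ptgir*, which rose in IKKβ-deficient BMDMs, and *Pde4a*, which rose, and *Gpr65*, which fell, in wt BMDMs. The counts below are for the p38 experiment without the block, and each call in them was lost without the 4 unmatched SB202190 columns and under the labels of the intensity columns. Counts are read against the percentages of all probes given above. The median log2 change with LPS of the 9 pathway lists ran from -0.15 to 0.47 in SB202190-treated BMDMs and from -0.12 to 1.18 in the DMSO control, against -0.03 over all probes in each, and the highest was that of the adenosine receptors, which holds 2 genes and includes *Adora2b*.

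Of the adenosine receptors, *Adora2b* and *Adora3* (a Gi-coupled receptor) were measured and neither passed. *Adora3* read 91.4, 96.1 and 95.5 at 4 h and 156, 141 and 153 at 0 h in SB202190-treated BMDMs, and 96.0, 920 and 89.2 at 4 h and 126, 355 and 197 at 0 h in the DMSO control, so the high array was again DMSO replicate 2. Of 8 measured genes that form or clear adenosine, *Slc29a3*, a lysosomal nucleoside transporter, fell with LPS in both arms. Its log2 change was -1.67 in SB202190-treated BMDMs (adjusted p = 0.00733) and -1.64 in the DMSO control (adjusted p = 0.0123). No other gene of that list passed.

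Among 13 measured genes of the cAMP pathway below the A2 receptors, 2 rose and 2 fell with LPS in each arm. *Pde4a* and *Pde4b*, phosphodiesterases that break down cAMP, rose in both. Their log2 changes were 1.48 and 1.10 in SB202190-treated BMDMs and 1.91 and 1.54 in the DMSO control. *Pde4b* read 207, 221 and 247 at 4 h and 104, 105 and 105 at 0 h in SB202190-treated BMDMs, against 409, 318 and 387 at 4 h and 87.1, 201 and 118 at 0 h in the DMSO control. *Prkaca*, a catalytic subunit of protein kinase A, fell in both arms, with a log2 change of -0.70 in SB202190-treated BMDMs and -0.64 in the DMSO control. The fourth gene was *Adcy7*, an adenylate cyclase, in SB202190-treated BMDMs and *Prkacb*, another catalytic subunit, in the DMSO control.

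Of 9 measured P2 receptors for ATP and other nucleotides, *P2ry1* (an ADP receptor) rose and *P2ry6* (a UDP receptor) fell with LPS in SB202190-treated BMDMs, and *P2ry2* (an ATP and UTP receptor) rose in the DMSO control. *P2ry1* read 404, 483 and 431 at 4 h in SB202190-treated BMDMs, against 127, 172 and 174 in the DMSO control. It was the only P2 receptor to differ between the arms at 4 h, by 1.49 on the log2 scale (SE 0.16, adjusted p = 0.00205).

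The endothelin system had 4 measured genes. *Ece1*, which cleaves the endothelin precursor, was higher in SB202190-treated than in DMSO BMDMs at 4 h, with 830.4, 869 and 826 against 365, 579 and 439. The log2 difference was 0.89 (SE 0.19, adjusted p = 0.0331), while *Edn1* itself had a negative difference that did not pass.

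Of 5 measured receptors for metabolites and fatty acids, *Hcar2* rose and *Gpr65* fell with LPS in both arms. *Hcar2*, a receptor for the ketone body β-hydroxybutyrate and for niacin, read 11102, 11328 and 10322 at 4 h and 1061, 1053 and 1004 at 0 h in SB202190-treated BMDMs. In the DMSO control it read 7135, 4732 and 12213 at 4 h and 135, 3089 and 479 at 0 h. Its log2 change was 3.39 (adjusted p = 0.0317) in SB202190-treated BMDMs and 3.67 (adjusted p = 0.0331) in the DMSO control. *Hcar2* thus passed in the DMSO control where *Gpr84* did not, though whether the 2 receptors differed from each other was not tested.

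*Gpr65*, a proton-sensing receptor, fell with LPS by a log2 change of -2.02 (adjusted p = 0.00944) in SB202190-treated BMDMs and -1.65 (adjusted p = 0.0286) in the DMSO control. In the IKKβ experiment *Hcar2* stood at 2273, 4178 and 1381 at 4 h in IKKβ-deficient BMDMs, against 3724, 4320.3 and 1975 in wt BMDMs. At 0 h it read 123, 1086 and 362 in IKKβ-deficient BMDMs and 106, 2105 and 759 in wt BMDMs, so replicate 1 was again the lowest at 0 h.

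In the PAF system 5 genes were measured. *Pafah1b3*, a catalytic subunit of a PAF acetylhydrolase, fell with LPS in SB202190-treated BMDMs (log2 change -0.70, adjusted p = 0.0418), and *Pafah1b1*, a regulatory subunit of the same enzyme, rose in the DMSO control (log2 change 0.66, adjusted p = 0.0447). *Lpcat2*, which makes PAF in macrophages, read 1441, 1571 and 1140.3 at 4 h in SB202190-treated BMDMs and 1669.6, 1865 and 2312 in the DMSO control, and did not pass.

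Of 17 measured genes for Gq and Gi signaling, *Arrb1* (an arrestin) and *Rgs2* (a brake on Gq) fell and *Plcb3* (a phospholipase C) rose with LPS in SB202190-treated BMDMs, and none passed in the DMSO control. Of 7 other eicosanoid and amine receptors, *Ptgir* (the prostacyclin receptor) rose and *Cysltr1* (a leukotriene receptor) fell with LPS in SB202190-treated BMDMs. *Ptger2*, a Gs-coupled prostaglandin E2 receptor, read 173, 178 and 176 at 4 h in SB202190-treated BMDMs, against 462, 332 and 709 in the DMSO control. It was lower in SB202190-treated BMDMs by a log2 difference of -1.44 (adjusted p = 0.0153), and *Cysltr1* was lower too (adjusted p = 0.0477).

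Genes of other cell types were read beside the members, since endothelin genes are also active in endothelial cells and A2B receptors in many cells. Of 8 endothelial markers with a probe, 3 passed the detection filter, and their summed value was 1037 to 1152 at 4 h and 860 to 902 at 0 h in SB202190-treated BMDMs and 743 to 844 at 4 h and 888 to 1061 at 0 h in the DMSO control. In the IKKβ experiment the sum was 480 to 685 at 4 h and 619 to 752 at 0 h in IKKβ-deficient BMDMs and 442 to 629 at 4 h and 572 to 624 at 0 h in wt BMDMs. The sum was thus higher at 4 h than at 0 h in SB202190-treated BMDMs, as *Edn1* was, and its range was lower at 4 h in the DMSO control, where *Edn1* was also higher in each replicate. *Vwf*, made by endothelial cells, was the 1 marker of the list that passed. With LPS it was lower in the DMSO control (log2 change -0.58, adjusted p = 0.0477), where *Edn1* was higher in each replicate. The median log2 change of the 3 markers there was 0.24, so the other markers went the other way from *Vwf*. *Vwf* was higher in SB202190-treated than in DMSO BMDMs at 4 h (log2 difference 0.73, adjusted p = 0.0320), while *Edn1* was lower on every array. The median difference of the 3 markers between the arms was 0.21. Each array detected 1 to 3 of these 3 markers, and their part in the *Edn1* values was not tested.

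Neutrophil lineage markers were read in the IKKβ experiment, where 7 of 8 passed the filter. Their summed value was 4575, 3939 and 3095 at 4 h and 944, 1840.0 and 1168 at 0 h in IKKβ-deficient BMDMs. In wt BMDMs it was 2574, 3039 and 4169 at 4 h and 1014, 3984 and 1109 at 0 h, so in wt replicate 2 it was lower at 4 h. None of the 7 passed for LPS, and their median log2 change was 0.0018 in IKKβ-deficient BMDMs and 0.015 in wt BMDMs. The sum was highest at 0 h in replicate 2 in both genotypes, as was *Gpr84* by probe 1, while *Adora2b* was highest there in replicate 3. By probe 2 *Gpr84* was highest at 0 h in replicate 2 in wt BMDMs, but in replicate 3 in IKKβ-deficient BMDMs (5474, against 4472 in replicate 2).

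In the p38 experiment 4 of 8 neutrophil lineage markers passed the filter. Their summed value was 1025, 945 and 1040.2 at 4 h and 1208, 1377 and 1433 at 0 h in SB202190-treated BMDMs. In the DMSO control it was 1259, 2532 and 1971 at 4 h and 845, 1092 and 1442 at 0 h. The sum at 4 h was thus lower on every SB202190 array than on every DMSO array, as *Edn1* and *Gpr84* probe 1 were. The median log2 difference of the 4 markers was -0.60, and 1 of them, *Camp*, an antimicrobial peptide gene, passed (-0.80, adjusted p = 0.0119). *Camp* also rose with LPS in the DMSO control (0.62, adjusted p = 0.0227), where the median of the 4 was 0.39, against -0.16 in SB202190-treated BMDMs.

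Stromal markers gave a similar picture at 4 h, with 4 of 7 past the filter. Their summed value was 711 to 746 at 4 h and 565 to 604 at 0 h in SB202190-treated BMDMs, against 907 to 1441 at 4 h and 586 to 1151 at 0 h in the DMSO control. None of the 4 passed in any comparison, and their median log2 difference between the arms at 4 h was -0.65. The part of the neutrophil and stromal markers in the member values was not tested.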

How the data were processed

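RNA of mouse BMDMs was hybridised to Illumina MouseRef-8 v2 BeadChips (25697 probes), 12 arrays in each of 2 experiments. The authors extracted intensities with BeadStudio and quantile-normalized each experiment on its own in Partek, and these normalized intensities were used as deposited. Detection p-values and intensities that were not normalized were also deposited by the authors. The detection p-values set the filter (under 0.05 on at least 3 of the 12 arrays) and the intensities served as an alternative. Of the probes, 23978 had 1 gene symbol and 1719 had none. The *Adora2b* probe was named from a supplementary table of the study after its values matched on all 24 arrays. In the p38 experiment normalized and intensity columns carried conflicting labels, so the detection filter there counts arrays of the experiment and no group.

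Log2 values were fitted by group means in each experiment with limma 3.58.1 (R 4.3.3), and p-values were adjusted by Benjamini-Hochberg over all probes tested. The detection level is the normalized value at the rank of the median number of detected probes. The code was tested on simulated data. Same-numbered arrays shared a BeadChip by the labels. Their deviations from group means correlated at 0.414 to 0.926 over 18 pairs in the IKKβ experiment, which pairs them, and at -0.068 to 0.594 in the p38 experiment. In the latter only the DMSO pairs of 4 h and 0 h stood out, at 0.536 to 0.594. Pairs with an SB202190 array ran from -0.068 to 0.095. Alternatives were a replicate block, other filters, scalings and offsets, array weights, fits of 2 groups alone, the methods' t-test run 1-sided and arrays left out. Chosen after seeing the data were the p38 fit without the 4 unmatched columns, the t-test run 2-sided and the replicate block for the gene lists. An exact permutation test of 3 against 3 arrays cannot go below p = 0.1 and was not used.

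The members and gene lists were chosen with earlier results of these data known. Named genes were all members, *Ikbkb*, up to 4 genes per list that passed (or up to 2 with the smallest p, as values), and the 3 genes most like each member. *Vwf* and *Camp* were named after their values were seen.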

Additional observations from a re-analysis of the deposited data

How the results depend on the processing

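The count of member probes called rested on the processing. With the replicate block it was 1 (*Adora2b*) for LPS in IKKβ-deficient BMDMs and 1 (*Adora2b*) in wt BMDMs, against 0 without it, and the block changed no other member call. The whole-table counts of calls under the block were 396 in IKKβ-deficient BMDMs and 709 in wt BMDMs, against 0 and 2. In the p38 experiment same-numbered arrays did not all pair, and the block left 1 member probe called for LPS in SB202190-treated BMDMs. The methods' t-test, run 1-sided without adjustment, called 4 member probes for LPS in each of the 4 arms and 3 for SB202190 against DMSO at 4 h, and after Benjamini-Hochberg adjustment 4 for LPS in SB202190-treated BMDMs. Run 2-sided without adjustment, it called 1 member probe for LPS in IKKβ-deficient BMDMs, 1 in wt BMDMs, 4 in SB202190-treated BMDMs and 2 in the DMSO control, and 2 for SB202190 against DMSO at 4 h. After adjustment it called 4 for LPS in SB202190-treated BMDMs and 1 for SB202190 against DMSO at 4 h. For LPS in SB202190-treated BMDMs the 1 call (*Edn1*) became 0 with the intensities in any of the 3 scalings, with no detection filter and without the 4 unmatched columns. The count was also 0 with detection required on all 12 arrays. *Edn1*, detected on 11, was not tested under that filter, so this setting cannot show whether its call holds. The count became 4 with array weights and with the 2 groups fitted alone. For this LPS change the 2 groups alone called 6560 of all 13523 probes, against 1205 in the main fit. That was the most of any alternative other than the t-tests. For SB202190 against DMSO at 4 h the 2 groups alone gave 1 call. With single arrays or replicates left out, the count ran from 0 to 4 for LPS in SB202190-treated BMDMs (4 without DMSO 0 h replicate 1), from 0 to 4 for LPS in the DMSO control (4 without DMSO 0 h replicate 2, 3 without replicate 2) and from 0 to 2 for SB202190 against DMSO at 4 h (2 without DMSO 0 h replicate 2). Without DMSO 0 h replicate 2, 3457 of all 13523 probes passed for LPS in the DMSO control and 1624 for SB202190 against DMSO at 4 h.

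The intensity column labelled SB202190 0 h replicate 3 has the rank order of normalized DMSO replicate 3 at 4 h. That labelled DMSO 4 h replicate 3 has the rank order of normalized SB202190 replicate 2 at 0 h. The labels thus conflict on time as well as on arm, and the part of this in the signs was not tested. Signs turned mainly under the labels of the intensity columns, given here in the order quantile-normalized, median-scaled and neqc. For SB202190 against DMSO at 4 h the log2 difference became 0.36, 0.23 and 0.37 for *Adora2b*, 0.83, 0.80 and 0.83 for *Gpr84* probe 1, 0.85, 0.83 and 0.86 for probe 2, and 1.20, 1.20 and 1.58 for *Edn1*. For LPS in SB202190-treated BMDMs *Gpr84* probe 1 became -0.048 (quantile-normalized) and -0.050 (neqc), and probe 2 -0.11, -0.027 and -0.11. In the same comparison *Plcb3* became -0.50, -0.54 and -0.57, *P2ry6* 0.28, 0.38 and 0.28, and *Cxcl2* -0.092, -0.21 and -0.035. *Ptgs2* became -0.060 with median scaling, and *Slc29a3* 0.018 with median scaling and 0.021 with neqc. In the IKKβ experiment median scaling moved *Gpr84* probe 1 to 0.017 for the genotype difference at 4 h. *Ednrb* probe 1 turned for LPS in wt BMDMs to -0.13 with median scaling and -0.096 on linear values, and in the DMSO control to -0.060 and -0.23. Median scaling moved the median of all probes for LPS in wt BMDMs to -0.15, against -0.02.

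With arrays or replicates left out, the genotype difference at 4 h ran from -0.48 to 0.17 for *Adora2b* and from -0.33 to 0.31 for *Gpr84* probe 1. The LPS change of *Ednrb* probe 1 ran from -0.39 to 1.11 in IKKβ-deficient, -0.78 to 0.74 in wt, -0.09 to 0.027 in SB202190-treated and -0.60 to 0.97 in DMSO BMDMs. The cause was not tested for any of these. The 3 arrays per group limit the precision. *Ednrb* probe 2 lay near the detection level. So did *Edn1* at 0 h in replicate 1 of the IKKβ experiment and on all arrays of the p38 experiment except DMSO replicate 2.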
